A study of Mus musculus with 2 samples.

Results

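The 10 genes described here encode the ligands, co-receptors and transcription factors that are best known for steering blood vessel growth: the VEGF family ligands *Vegfa*, *Vegfb*, *Vegfc* and *Pgf*, the neuropilins *Nrp1* and *Nrp2*, the angiopoietins *Angpt1* and *Angpt2*, and the hypoxia-inducible factor genes *Hif1a* and *Epas1*. The genes were matched by symbol. All 10 were found among the 25810 genes listed by symbol, and all 10 reached at least 1 RPM (reads normalised by the authors to the mapped reads of a library) in at least 1 library, as did 14026 genes in total. The 2 RNA-Seq libraries compared were 1 from wild-type (WT) and 1 from Igfbp7-/- (KO) female mice on lactation day 3, each made from poly(A) RNA of dissociated inguinal mammary glands after magnetic removal of lineage positive cells. The methods name CD45, CD31 and Ter119 as the markers used for that removal, which target leukocytes, endothelial cells and erythroid cells, whereas the sample labels print CD35 where the methods print CD31. In the Igfbp7-/- mice the first coding exon was deleted in the whole animal, so cells of every type lacked the gene. The labels give C57BL/6 as the genetic background of both groups and the methods give CD1. How many animals entered each library was not given in the sources used here, and with 1 library per genotype no difference could be tested against the spread between animals.

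*Igfbp7* itself was counted 5224 times (152 RPM) in the WT and 37 times (1.06 RPM) in the Igfbp7-/- library, which matches the labels. The authors' totals of mapped reads were 34327854 for WT and 35016847 for Igfbp7-/-, which puts the detection floor of 3 reads at 0.0874 and 0.0857 RPM. The listed genes took 82.3% of the mapped WT reads and 72.3% of the mapped Igfbp7-/- reads. Scaling to the reads on listed genes instead of all mapped reads moved the median log2 ratio of all genes from 0.03 to 0.22 and, among the genes past 1.5 times, the share that were higher from 48.2% to 62.2%. Ratios are given as the log2 of Igfbp7-/- over WT, from the deposited RPM with 0.1 RPM added to both values, and a gene is counted as higher or lower at a difference of at least 1.5 times. The 95% intervals are Clopper-Pearson intervals on read pairs and cover counting error only.

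VEGF-A and VEGF-C are secreted ligands that act through receptor tyrosine kinases on blood and lymphatic endothelial cells, respectively, and placental growth factor (*Pgf*) and VEGF-B bind the receptor Flt1. Neuropilins hold VEGF or class 3 semaphorins at the cell surface beside these receptors or beside plexins, and angiopoietin 1 and angiopoietin 2 bind the Tie2 receptor, encoded by *Tek*, the first mainly as an activator and the second mainly as an antagonist that depends on context. *Hif1a* and *Epas1* encode the oxygen-regulated subunits of the hypoxia-inducible factors (HIF), whose amount is set largely by degradation of the protein, so that transcript levels do not report their activity. The lactating gland has a dense capillary bed around the alveoli, which regresses and is remodelled as involution proceeds.

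The normalised read count (RPM) was lower in the Igfbp7-/- than in the WT library for 9 of the 10 genes, beside 48.4% of all 14026 genes. *Nrp2*, *Angpt2*, *Pgf*, *Nrp1* and *Epas1* were lower by at least 1.5 times, *Vegfa*, *Angpt1* and *Hif1a* were lower by less, *Vegfc* was nearly equal and *Vegfb* was the only one above its WT value. Thus 5 of 10 were lower and 0 of 10 higher by at least 1.5 times, where 23.0% of all 14026 genes were lower and 21.4% were higher. The median log2 ratio of the 10 genes was -0.59, against 0.03 for all genes. The 10 genes lie on 6 chromosomes, with *Vegfc*, *Nrp1* and *Angpt2* on chromosome 8, *Pgf* and *Hif1a* on 12, and *Vegfa* and *Epas1* on 17. With the libraries scaled to the reads on listed genes, *Epas1*, the nearest of the 5 to 1.5 times, was within it (log2 ratio -0.52), *Vegfb* passed 1.5 times upward (0.65) and *Vegfc* was above its WT value (0.16). In bulk samples such as these, fewer cells of a type and less RNA per cell cannot be told apart.

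**Figure D1:**
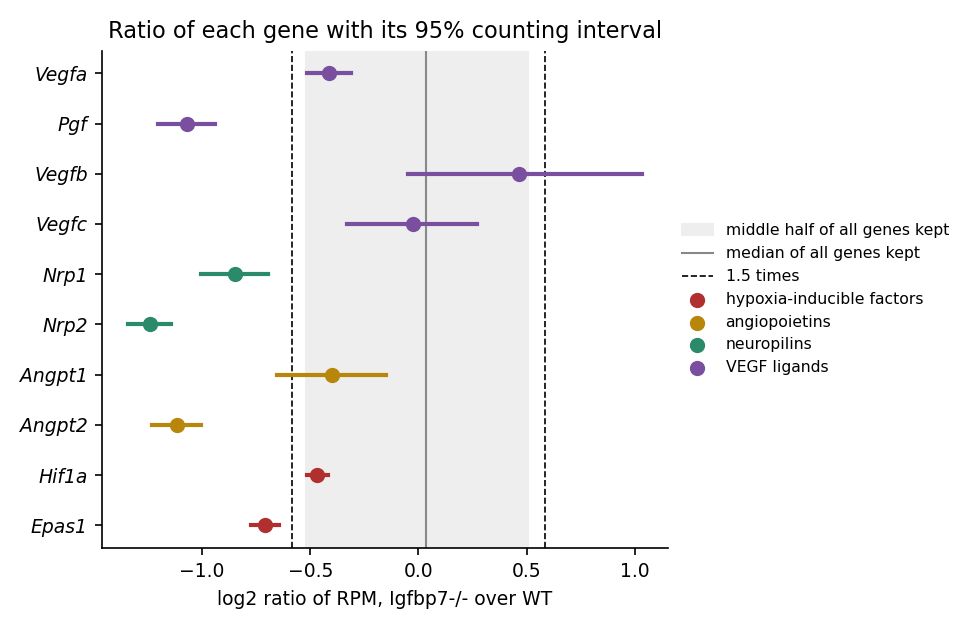
Log2 ratio of RPM (horizontal axis, Igfbp7-/- over WT) for each of the 10 genes, 1 library per genotype, where points are ratios and horizontal bars their 95% counting intervals, dashed lines mark 1.5 times, the grey line the median of all 14026 genes and the grey band the range between their quartiles. *Nrp2*, *Angpt2*, *Pgf*, *Nrp1* and *Epas1* lie left of the lower dashed line and *Vegfb* is the only point to the right of the median.

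Among the VEGF ligands, *Pgf* was the one that differed most. Positions of genes are those of the GENCODE vM1 annotation on NCBIM37 (mm9). *Pgf* (chr12:86507589-86518246, minus strand) was counted 2903 times in the WT library (84.6 RPM) and 1407 times in the Igfbp7-/- library (40.2 RPM), which gives a log2 ratio of -1.07 (95% interval -1.21 to -0.94), so its level was 2.10 times lower. *Vegfa* (chr17:46153942-46169326, minus strand), the main driver of capillary growth, was counted 3740 times in the WT library (109 RPM) and 2865 times in the Igfbp7-/- library (81.8 RPM), which gives a log2 ratio of -0.41 (-0.51 to -0.31) or 1.33 times lower. *Vegfa* was thus lower by more than counting error but by less than 1.5 times. With scaling to the reads on listed genes its log2 ratio was -0.225, outside that interval.

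*Vegfc* (chr8:55162886-55271808, plus strand), known for lymphatic vessel growth, was counted 371 times in the WT library (10.8 RPM) and 372 times in the Igfbp7-/- library (10.6 RPM), which gives a log2 ratio of -0.02 (95% interval -0.33 to 0.27). *Vegfb* (chr19:7056963-7062141, minus strand) was the most weakly expressed of the 10, counted 102 times in the WT library (2.97 RPM) and 145 times in the Igfbp7-/- library (4.14 RPM), and its log2 ratio of 0.47 had an interval from -0.05 to 1.03. Both intervals include a ratio of 1, so no difference in *Vegfb* or *Vegfc* was detectable at this depth. The summed RPKM (RPM divided by gene length in kilobases) of the 4 ligands was 89.3 in WT and 55.9 in Igfbp7-/-. *Pgf* made up 56.6% of that sum in WT and 42.9% in Igfbp7-/-, while *Vegfa* made up 34.4% and 41.3%. Per length, *Pgf* was thus the leading ligand transcript in WT, and *Pgf* and *Vegfa* stood side by side in Igfbp7-/-.

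Both neuropilin genes were lower in Igfbp7-/- by at least 1.5 times. *Nrp2* (chr1:62749859-62865269, plus strand), whose product pairs with VEGF-C and class 3 semaphorins, was counted 5566 times in the WT library (162 RPM) and 2397 times in the Igfbp7-/- library (68.5 RPM). Its log2 ratio of -1.24 (95% interval -1.34 to -1.15), or 2.37 times lower, was the lowest of the 10 genes, and 10.2% of all genes had a lower one. *Nrp1* (chr8:130882973-131029362, plus strand), whose product binds VEGF-A and semaphorin 3A, was counted 1929 times in the WT library (56.2 RPM) and 1091 times in the Igfbp7-/- library (31.2 RPM), which gives a log2 ratio of -0.85 (-1.0 to -0.70) or 1.80 times lower.

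The plexins that signal together with neuropilins split in direction. *Plxnd1*, the plexin best known from endothelial cells, was at 104 RPM in WT and 31.3 RPM in Igfbp7-/- (log2 ratio -1.73, 95% interval -1.88 to -1.60), and *Plxna2* was at 112 and 38.8 RPM (-1.52, -1.66 to -1.40). *Plxna1* was at 73.9 RPM in WT and 87.2 RPM in Igfbp7-/- (0.24, 0.13 to 0.35), and *Plxna4* was at 10.2 and 14.7 RPM (0.52, 0.24 to 0.81). Of the 5 plexin genes 2 were lower and 1 was higher by at least 1.5 times. The gene that was higher was the weakly expressed *Plxna3*, at 3.32 and 5.85 RPM (0.80, 0.34 to 1.32), while *Plxna1* and *Plxna4* were within 1.5 times. *Plxna3* was not counted as higher at a minimum of 10 RPM or at a fold of 2. Of 8 other ligands with at least 1 RPM, class 3 semaphorins and *Figf* (VEGF-D), 3 were lower and 0 higher. Beside the 23.0% of all genes that were lower and the 21.4% that were higher, lists of this size differ from the background by only a few genes. *Sema3f*, a ligand of neuropilin 2, was at 32.4 RPM in WT and 14.6 RPM in Igfbp7-/- (-1.14, -1.37 to -0.93), and *Sema3g* was at 15.7 and 6.23 RPM (-1.32, -1.67 to -1.01). *Sema3c*, the most abundant of these ligands by RPM, was at 188 RPM in WT and 127 RPM in Igfbp7-/- (-0.57, -0.65 to -0.49), just inside 1.5 times, and *Sema3d* at 10 and 6.23 RPM (-0.68, -1.05 to -0.33) was just outside.

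The stretches before the transcription start of the 3 genes from this set that were lower by at least 1.5 times and had an entry in the RefSeq promoter table, *Nrp2*, *Nrp1* and *Pgf*, are shown with that of *Vegfb*, the gene above its WT value, because HIF complexes bind a short core that can be read in them. The core was searched as ACGTG and GCGTG on both strands (CACGT and CACGC on the other), and matches are in capitals. Each line gives bases -250 to -51 before a start that RefSeq annotates, 5′ to 3′ on the strand of the gene. *Pgf* has 2 annotated starts, of which the first is shown, and the window before the second held no core. The table's sequences carry GRCm38.p6 coordinates, so their positions were found by exact match in the NCBIM37 genome, the build that corresponds to mm9 in the submitters' processing notes. They are chr1:62749641-62749840 for *Nrp2* (plus strand), chr8:130882723-130882922 for *Nrp1* (plus strand), chr12:86518314-86518513 for *Pgf* (minus strand) and chr19:7062192-7062391 for *Vegfb* (minus strand), and no GENCODE vM1 exon overlaps any of them.
Nrp2: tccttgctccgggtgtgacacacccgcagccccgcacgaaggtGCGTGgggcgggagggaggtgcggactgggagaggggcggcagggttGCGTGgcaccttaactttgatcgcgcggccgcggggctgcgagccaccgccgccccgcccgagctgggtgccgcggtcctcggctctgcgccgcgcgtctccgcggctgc
Nrp1: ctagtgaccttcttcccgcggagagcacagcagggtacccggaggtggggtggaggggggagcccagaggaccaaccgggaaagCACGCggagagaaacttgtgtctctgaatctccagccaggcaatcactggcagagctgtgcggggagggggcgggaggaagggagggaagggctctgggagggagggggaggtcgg
Pgf: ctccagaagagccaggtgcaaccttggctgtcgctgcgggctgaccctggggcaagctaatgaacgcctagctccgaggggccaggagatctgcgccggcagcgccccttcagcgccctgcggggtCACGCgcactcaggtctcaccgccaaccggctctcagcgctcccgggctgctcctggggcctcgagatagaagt
Vegfb: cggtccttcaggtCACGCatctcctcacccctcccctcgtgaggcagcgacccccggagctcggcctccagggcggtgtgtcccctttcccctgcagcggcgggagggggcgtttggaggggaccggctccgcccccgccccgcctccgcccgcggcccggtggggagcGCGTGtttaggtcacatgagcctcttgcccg

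*Nrp2* held 2 cores, at -207 and -160, *Nrp1* 1 core at -166, *Pgf* 1 core at -124, and *Vegfb* 2 cores, at -237 and -81. In the whole windows of 250 bases, 6 of the 7 genes with an entry held at least 1 core at one of their annotated starts, as *Hif1a* and *Vegfa* did besides these 4, and *Vegfc* held none. Of the 9 windows of these 7 genes 6 held a core, and so did 38.6% of all 32851 windows in the table. In *Hif1a*, 2 of the 3 matches overlap as a palindrome, and the 2 cores in *Vegfa* lay before the second of its 2 starts, while the window before the first held none. The *Hif1a* window and the window before the second *Vegfa* start lie inside the annotated genes, and their overlap with exons was not checked. Their cores are included in the counts above, which are therefore not limited to sequence upstream of the annotated genes. *Angpt1*, *Angpt2* and *Epas1* had no entry in the table. The core was found both in genes that were lower and in *Vegfb*, and a match in these letters is a description of the sequence, not a bound site.

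Of the angiopoietins, *Angpt2* was lower by more than *Angpt1*. *Angpt2* (chr8:18690263-18741562, minus strand), which endothelial cells release when vessels are remodelled, was counted 3965 times in the WT library (116 RPM) and 1863 times in the Igfbp7-/- library (53.2 RPM), which gives a log2 ratio of -1.12 (95% interval -1.23 to -1.0) or 2.17 times lower. *Angpt1* (chr15:42256273-42508523, minus strand), made mainly by cells around the vessel, was counted 598 times in the WT library (17.4 RPM) and 461 times in the Igfbp7-/- library (13.2 RPM), which gives a log2 ratio of -0.40 (-0.65 to -0.15) or 1.32 times lower. *Angpt1* therefore stayed within 1.5 times.

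Of the 4 receptors that bind these ligands, *Kdr*, *Flt1* and *Flt4* were lower by at least 1.5 times and *Tek* was within it. With *Tie1* and *Ptprb*, which act beside Tie2 and do not themselves serve as receptors of these ligands, 5 of the 6 genes on the list were lower and 0 higher, with a median log2 ratio of -1.43, where 23.0% of all genes were lower. The summed level of the endothelial markers, among which *Kdr*, *Flt1*, *Tek* and *Tie1* are counted, was 3.19 times lower in the same library, and its part in the receptor values was not tested. *Kdr*, the main VEGF-A receptor, was at 62.8 RPM in WT and 29.8 RPM in Igfbp7-/- (log2 ratio -1.07, 95% interval -1.23 to -0.92), and *Flt1*, which also binds *Pgf* and VEGF-B proteins, was at 128 and 41.2 RPM (-1.63, -1.76 to -1.51). *Flt4*, the VEGF-C receptor, was at 15.7 and 5.60 RPM (-1.47, -1.83 to -1.15). *Tie1*, the partner of Tie2, was at 83.3 RPM in WT and 13.7 RPM in Igfbp7-/- (-2.60, -2.81 to -2.41), and *Ptprb*, the phosphatase that restrains Tie2, was at 132 and 50.2 RPM (-1.39, -1.51 to -1.28). *Tek*, the angiopoietin receptor itself, was at 31.9 and 28.2 RPM, with a log2 ratio of -0.18 (-0.35 to 0.003). Its interval includes a ratio of 1.

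*Hif1a* was the most abundant of the 10 genes in both libraries and stayed within 1.5 times, whereas *Epas1* was lower by slightly more. *Hif1a* (chr12:75002362-75048517, plus strand) was counted 16624 times in the WT library (484 RPM) and 12262 times in the Igfbp7-/- library (350.2 RPM), which gives a log2 ratio of -0.47 (95% interval -0.52 to -0.42) or 1.38 times lower. *Epas1* (chr17:87153247-87232750, plus strand), which encodes HIF-2α and is prominent in endothelial cells, was counted 10078 times in the WT library (294 RPM) and 6279 times in the Igfbp7-/- library (179 RPM), which gives a log2 ratio of -0.71 (-0.78 to -0.65) or 1.64 times lower.

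Some of the partners and regulators of the HIF subunits were higher in Igfbp7-/-. Of 10 such genes with at least 1 RPM, 4 were higher, 0 lower and 6 within 1.5 times, with a median log2 ratio of 0.48, where 21.4% of all genes were higher. The number higher was 3 with ratios centred on the median of all genes, where 20.2% of all genes were higher. It was 5 of 11 with scaling to the listed genes, beside 30.6% of all genes, and 1 of 10 at a fold of 2, beside 9.64%. *Cited2*, a target of HIF that competes with it for the coactivators CBP and p300, was at 143 RPM in WT and 295 RPM in Igfbp7-/- (log2 ratio 1.04, 95% interval 0.97 to 1.11). The coactivator gene *Crebbp* was at 89.3 and 173 RPM (0.95, 0.86 to 1.04), and *Ep300* was at 70.9 and 108 RPM (0.60, 0.50 to 0.71). *Hif1an*, which encodes the asparagine hydroxylase FIH, was at 27.0 and 41.9 RPM (0.63, 0.46 to 0.80). The prolyl hydroxylase genes, whose products mark HIF for degradation when oxygen is present, stayed within 1.5 times, with *Egln3* at 75.6 and 111 RPM (0.56, 0.46 to 0.66), *Egln1* at 16.6 and 21.8 RPM (0.39, 0.17 to 0.62) and *Egln2* at 17.2 and 18.2 RPM (0.08, -0.15 to 0.32). *Arnt*, the constitutive HIF partner, was at 53.8 and 62.1 RPM (0.21, 0.08 to 0.34). *Vhl*, whose product directs the hydroxylated subunits to the proteasome, was at 10.1 and 9.25 RPM (-0.12, -0.44 to 0.19).

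Genes that HIF or hypoxia is known to induce differed in both directions. Of 43 such genes with at least 1 RPM, 14 (32.6%) were lower and 7 (16.3%) higher by at least 1.5 times, beside 23.0% and 21.4% of all genes, and their median log2 ratio was -0.38. Among the lowest ratios of the 34 with at least 10 RPM were those of the glycolytic genes *Aldoc* (183 against 49.6 RPM in Igfbp7-/-, log2 ratio -1.88), *Pgam1* (154 and 64.8 RPM, -1.24) and *Pfkp* (112 and 55.1 RPM, -1.02), and of *Hmox1*, heme oxygenase (989 and 442 RPM, -1.16). The highest were those of the histone demethylase gene *Kdm3a* (57.9 and 138 RPM, 1.25), the transcriptional repressor genes *Bhlhe40* (171 and 354 RPM, 1.05) and *Mxi1* (15 and 24.8 RPM, 0.72), and the metabolic regulators *Pfkfb3* (540.0 and 1050.5 RPM, 0.96) and *Pdk1* (7.17 and 11.1 RPM, 0.63). How reads that match several places were counted was not given in the sources used here, and *Gapdh*, which has many processed copies in the genome, was listed at 2.68 and 2.71 RPM.

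**Figure D2:**
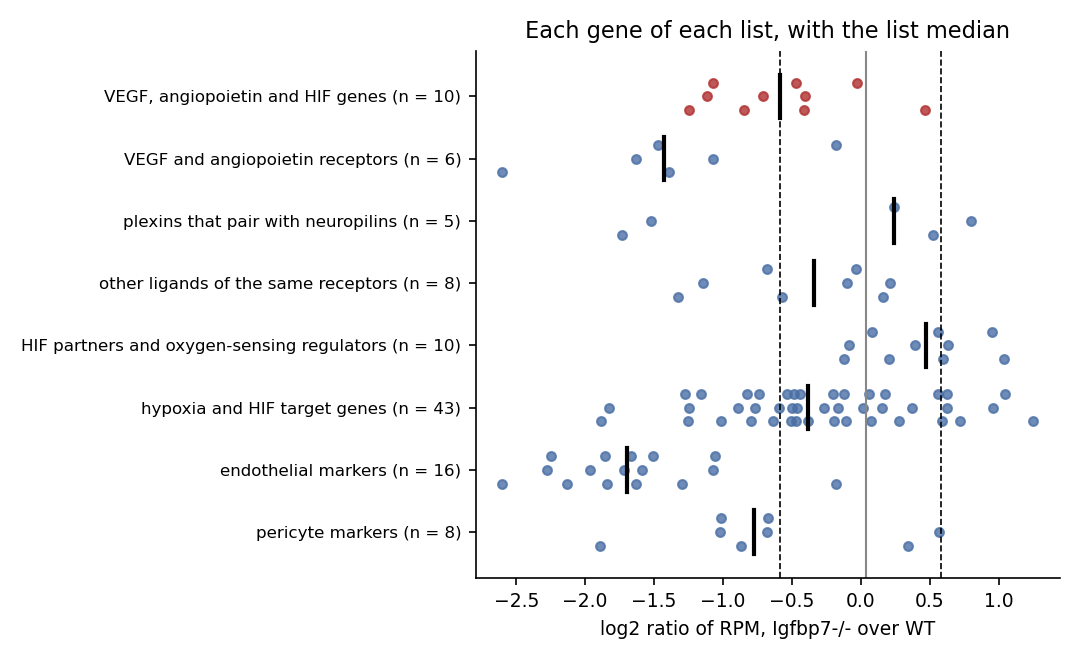
Log2 ratio of RPM (horizontal axis, Igfbp7-/- over WT) of every gene with at least 1 RPM in 1 of the 2 libraries, by list; points are genes, black bars list medians, dashed lines 1.5 times and the grey line the median of all 14026 genes. The receptor and endothelial marker lists, which share *Kdr*, *Flt1*, *Tek* and *Tie1*, have medians of -1.43 and -1.69, below that of the VEGF, angiopoietin and HIF genes (-0.59), and the HIF partners and regulators have a median of 0.48. Marker lists that are not drawn have medians of -1.85 (adipocyte), -1.51 (basal and myoepithelial), -1.39 (leukocyte), -0.67 (fibroblast), -0.52 (luminal and milk secretory) and 0.26 (erythroid).

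Levels of different genes were compared per length, as RPKM within a library. In WT the order was *Hif1a* (101 RPKM), *Epas1* (54.9), *Pgf* (50.5), *Angpt2* (46.7), *Vegfa* (30.7), *Nrp2* (24.1), *Nrp1* (9.49), *Vegfc* (5.75), *Angpt1* (4.27) and *Vegfb* (2.29), and each neighbouring pair differed by more than counting error. In Igfbp7-/- *Hif1a* (73.3 RPKM) and *Epas1* (33.5) again came first, followed by *Pgf* (24.0), *Vegfa* (23.1) and *Angpt2* (21.5), whose neighbouring intervals overlapped a ratio of 1. *Nrp2* was next at 10.2 RPKM. *Vegfc* (5.65) and *Nrp1* (5.26), and *Angpt1* (3.23) and *Vegfb* (3.19), likewise did not differ beyond counting error in Igfbp7-/-. The difference between *Angpt2* and *Vegfa* in WT, 1.43 to 1.62 times by its 95% interval, was thus not seen in Igfbp7-/-, where the ratio of *Vegfa* to *Angpt2* was 0.99 to 1.17. Among all genes with reads and a deposited RPKM, *Hif1a* was above 97.8% in WT and 97.3% in Igfbp7-/-, and *Vegfb* above 49.9% and 55.2%. RPKM depends on the gene lengths set by the authors, which the files imply to be from 1298 bases for *Vegfb* to 6739 bases for *Nrp2*, and a length that does not match the transcripts present would shift a gene in this order.

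**Figure D3:**
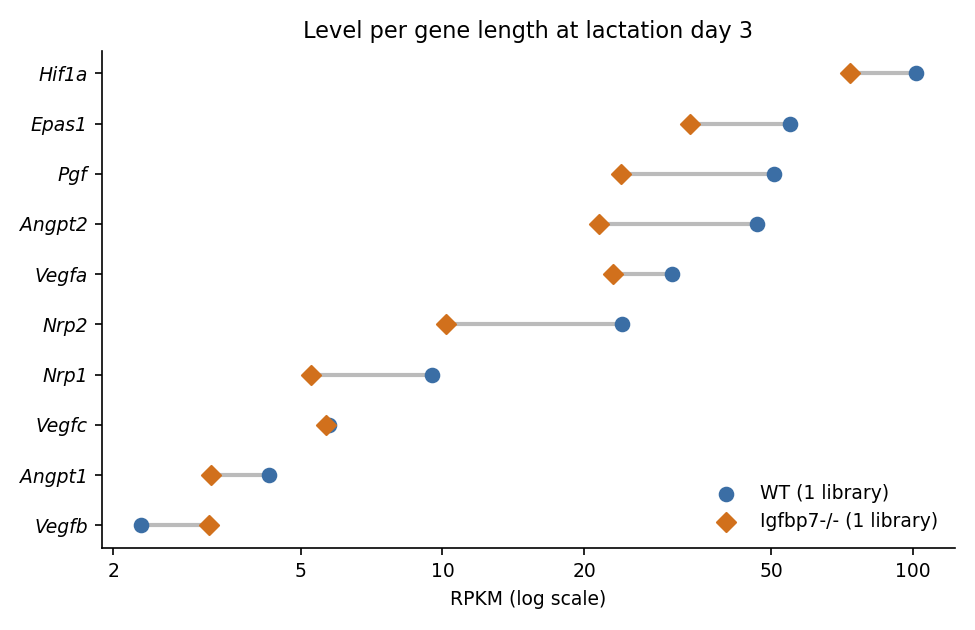
RPKM (horizontal axis, log scale) of the 10 genes in the WT library (circles) and the Igfbp7-/- library (diamonds), 1 library each, ordered by the WT level; grey lines join the 2 values of a gene. *Vegfb* is the only gene whose diamond lies to the right of its circle, and *Pgf*, *Angpt2* and *Vegfa* crowd between 21.5 and 24.0 RPKM in Igfbp7-/-.

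The balance between partners was compared as the ratio of 2 genes within each library, a measure that does not depend on how the libraries are scaled to each other. All 5 such ratios differed between the libraries by more than counting error. *Angpt2* exceeded *Angpt1* 10.9 times per length in WT and 6.66 times in Igfbp7-/-, a log2 change of -0.72 (exact conditional 95% interval -0.99 to -0.44). *Vegfa* was at 0.61 times the level of *Pgf* in WT and at 0.96 times in Igfbp7-/- (log2 change 0.66, 0.49 to 0.83). *Vegfa* exceeded *Vegfb* 13.4 times in WT and 7.23 times in Igfbp7-/- (-0.90, -1.46 to -0.36), a change that rests on the few reads of *Vegfb*. *Nrp1* was at 0.39 times the level of *Nrp2* in WT and at 0.52 times in Igfbp7-/- (0.39, 0.21 to 0.58). The smallest change was that of *Hif1a* to *Epas1*, from 1.85 to 2.19 times (0.24, 0.16 to 0.32). In all 5 pairs the gene with the higher level in WT thus also had the higher level in Igfbp7-/-, although for *Pgf* over *Vegfa* the Igfbp7-/- interval included a ratio of 1. None of these changes has a replicate check.

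**Figure D4:**
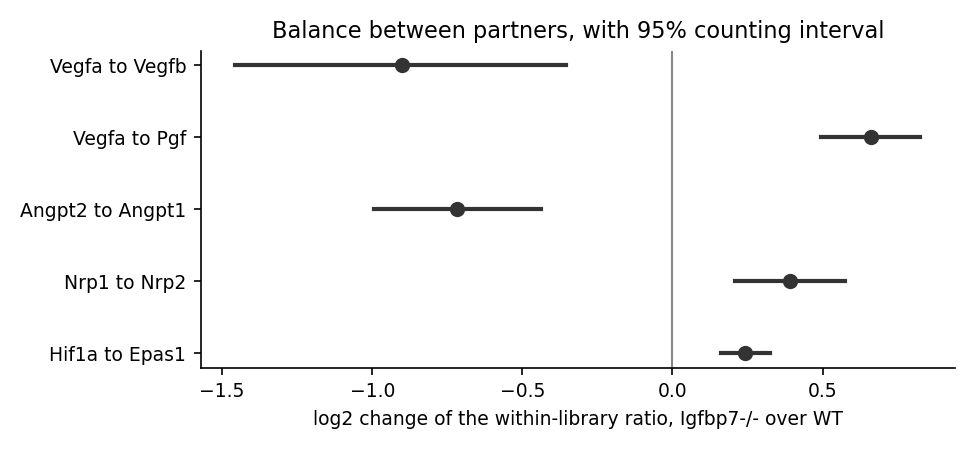
Log2 change between libraries (horizontal axis, Igfbp7-/- over WT) of the within-library ratio of 5 pairs of genes, with points for the change and bars for the exact 95% interval of counting error, 1 library per genotype. The ratios of *Vegfa* to *Vegfb* (-0.90) and *Angpt2* to *Angpt1* (-0.72) were lower in Igfbp7-/-, those of *Vegfa* to *Pgf* (0.66), *Nrp1* to *Nrp2* (0.39) and *Hif1a* to *Epas1* (0.24) were higher, and no bar reaches 0.

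Endothelial transcripts were present in both libraries although cells carrying CD31 were to be removed, and they were lower in Igfbp7-/- by more than the 10 genes were. The paper measured the lineage positive cells left after the removal by antibody staining and deemed their level insignificant. The RPM of a marker does not give a share of cells. Of 16 endothelial marker genes 15 were lower and 0 higher by at least 1.5 times, with *Tek* within it, beside 23.0% of all genes lower and 21.4% higher. Their summed level was 2032 RPM in WT and 636 RPM in Igfbp7-/-, 3.19 times lower (log2 ratio -1.68), and single markers ranged from 14.8 to 584 RPM in WT and from 2.97 to 184 RPM in Igfbp7-/-, with none at 0. *Cdh5*, which encodes VE-cadherin, was at 584 and 184 RPM, and *Pecam1*, which encodes CD31, was at 323 and 88.9 RPM. All 10 VEGF, angiopoietin and HIF genes had a higher ratio than the endothelial marker sum, and 13 of the 16 markers had a lower ratio than *Nrp2*. This was not particular to endothelial markers. All 10 also had a higher ratio than the summed basal and myoepithelial (log2 ratio -1.62), adipocyte (-1.55) and luminal and milk secretory (-1.35) markers. Of the 10 genes, 7 were above the fibroblast sum, 5 above the pericyte sum, and 1 above each of the leukocyte and erythroid sums. The part of endothelial transcripts in the lower values of *Nrp1*, *Nrp2*, *Angpt2*, *Pgf* and *Epas1* was not tested.

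Markers of other cell types differed between the libraries too. Their counts are to be read beside the 23.0% of all genes that were lower and the 21.4% that were higher. Of 8 basal and myoepithelial markers 7 were lower and 0 higher, with a summed level of 3284 RPM in WT and 1070.3 RPM in Igfbp7-/- (log2 ratio -1.62), and the contractile genes *Acta2* (1052 and 227 RPM) and *Myh11* (883 and 344 RPM) led them. Of 8 fibroblast markers 4 were lower and 1 higher, and their sum was 9250.5 and 4731 RPM (-0.97), mostly *Col3a1* (4670.2 and 1950.5 RPM) and *Col1a1* (1529.6 and 894 RPM). Of 8 pericyte markers 6 were lower and 0 higher, with a sum of 229 and 158 RPM (-0.53), in which *Rgs5* was at 71.3 and 35.3 RPM and *Pdgfrb* at 50.7 and 64.2 RPM. The adipocyte markers, of which 3 of 4 with at least 1 RPM were lower and 1 higher, summed to 563 and 192 RPM (-1.55), nearly all of it *Fabp4* (543 and 173 RPM), and *Lep* was at 8.04 and 16.8 RPM.

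Of 10 leukocyte markers 8 were lower and 0 higher, while their sum, 669 and 759 RPM (log2 ratio 0.18), followed *Cd14* (469.9 and 677 RPM), and *Lyz2* was at 66.9 and 24.1 RPM. None of the 4 erythroid markers with at least 1 RPM passed 1.5 times, and their list summed to 1066 and 1243 RPM (0.22), with *Hbb-b1* at 669 and 697 RPM and *Hba-a1* at 201 and 288 RPM. In the luminal list 4 of 9 (44.4%) were lower and 3 (33.3%) higher, beside 23.0% and 21.4% of all genes. The list summed to 87786 and 34330.4 RPM (-1.35), and its milk protein genes and its keratins differed in opposite directions. The casein genes *Csn2* (53087 and 19970.1 RPM, -1.41) and *Csn3* (19467 and 7473 RPM, -1.38) made up most of the sum. The 3 that were higher, named here after their values were seen, were the luminal keratin genes *Krt8* (268 and 789 RPM, 1.56), *Krt18* (250.4 and 1174 RPM, 2.23) and *Krt19* (105 and 292 RPM, 1.47). The share of each of these cell types in the values of the 10 genes was not tested.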

How the data were processed

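RNA from lineage-depleted mammary cells of 1 WT and 1 Igfbp7-/- sample was sequenced as SOLiD read pairs of 35 and 75 bp. The authors mapped them in GeneSifter with a Bowtie pipeline, allowing 3 mismatches, after mitochondrial, ribosomal and small nuclear RNA had been removed. The submitters' processing notes list Bowtie 0.12.3, SAMtools 0.1.15 and mm9, whereas the methods name a human reference, although the files list mouse genes. The annotation used was not given in the sources used here. The deposited count per gene is not normalized, the deposited RPM is that count divided by the mapped reads of the library, and the deposited RPKM divides RPM by the authors' gene length (missing for 733 rows of each file). The 50 rows without a symbol (0.0408% and 0.0484% of mapped reads) were left out.

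Ratios were computed from RPM with a pseudocount of 0.1 RPM for genes with at least 1 RPM in 1 library, and 1.5 times is the fold of the study. Of genes with up to 20 reads, 75.8% (WT) and 74.1% (Igfbp7-/-) had an even count, so intervals were computed on read pairs. They cover counting error only, and reads carry no molecular identifiers. Groups came from the genotype labels. No test was run, since each genotype had 1 library. Ratios and intervals were checked on read pairs simulated with counting error only, which cannot show how they hold under variation between animals. The 10 genes and all gene lists were chosen with earlier results of these data known. Named were all 10 genes, the genes of the receptor, ligand, plexin and HIF regulator lists with at least 10 RPM, the extremes of the target and angiogenic factor lists at that level, and the 2 most abundant markers of each cell type, except 1 gene that is not reported here. As alternatives, the pseudocount was set to 1 or 0.01 RPM, and RPKM, other minimums, centring on the median, 2 other library totals and a fold of 2 were tried. Promoter sequences are from RefSeq (GRCm38.p6). Software versions were matplotlib 3.10.9, pandas 2.3.3, scipy 1.17.1, numpy 2.4.6 and Python 3.11.15.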

Additional observations from a re-analysis of the deposited data

How the results depend on the processing

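Each genotype had 1 library, so leaving out a replicate and pairing were not possible, and the variation between animals is not in any interval. The number of the 10 genes lower by at least 1.5 times was 5 under every alternative except scaling to the reads on listed genes, which gave 4 lower and 1 higher, and a fold of 2, which left 3 lower (*Nrp2*, *Angpt2* and *Pgf*). Of all genes, 18.6% were lower and 30.6% higher with that scaling, and 13.8% were lower and 9.64% higher with a fold of 2. At a fold of 2, 7 of 43 hypoxia and HIF target genes were lower and 2 higher, in place of 14 and 7. *Nrp2*, *Angpt2*, *Pgf* and *Nrp1* passed 1.5 times under all 10 settings of scale, pseudocount and minimum that gave them a value, *Epas1* under 9 of them. Across all genes, 3006 were higher and 3231 lower, against 4741 and 5279 with no minimum, 1696 and 1672 with a minimum of 10 RPM, and 1352 and 1936 with a fold of 2. The log2 ratio of *Vegfc* ranged from -0.06 to 0.16 and so changed sign with the scaling. The 5 balances moved within their intervals when single reads or RPKM were used. Depth limited *Vegfb* and *Vegfc* most.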

Other observations

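Other angiogenic factors and inhibitors outside the VEGF and angiopoietin families were looked at from a list of 19 genes, of which 7 were lower and 3 higher in Igfbp7-/- by at least 1.5 times (median log2 ratio -0.39, 1 library per genotype). These are 36.8% and 15.8% of the list, beside 23.0% and 21.4% of all genes. The lowest ratios among the 17 with at least 10 RPM were those of *Apln*, the ligand of the apelin receptor (13.7 RPM in WT against 1.66 RPM, log2 ratio -2.97), of *Egfl7*, which is also 1 of the endothelial markers (14.8 and 2.97 RPM, -2.28), and of *Dll4*, a Notch ligand of sprouting vessels (11.1 and 4.11 RPM, -1.41). The highest were those of *Cyr61*, a matricellular protein gene (249.7 and 1077 RPM, 2.11), and of the thrombospondin genes *Thbs2* (213 and 329 RPM, 0.63) and *Thbs1* (2016 and 2595 RPM, 0.36), which encode inhibitors of angiogenesis. *Thbs1* stayed within 1.5 times.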
